A study of Ovis aries with 16 samples.

Results

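oar-miR-148a and oar-miR-152 are a pair of sheep miRNAs that carry the same seed, the stretch near the 5′ end with which a miRNA recognises its target mRNAs. They were chosen by name, as the rows of these names in each library, and both were listed. They are 2 of the 271 miRNAs listed, of which 103 are known sheep miRNAs, in files of 5267 miRNA and piRNA entries. The measurements came from small RNA sequencing of testis from 16 sexually mature Merino rams, with 1 library per male. For 65 days the 8 well-fed males were given feed set for a body mass gain of 10%, and the 8 underfed males feed set for a change of -10%. All 16 rams were housed singly, and RNA came from frozen pieces of the right testis, so each library mixed all the cell types of the organ. The comparison of the diets asks whether the expression of the pair, and the balance between its members, differed with nutrition.

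Because members of the miR-148 and miR-152 family share a seed, they are expected to recognise largely the same target sites, and the amount of regulation a cell receives depends on the sum of the members it makes. The best known shared target is the mRNA of DNMT1, the enzyme that copies DNA methylation after replication. miR-148a is also known in liver as a regulator of lipid metabolism, through the mRNAs of the LDL receptor and the cholesterol transporter ABCA1. The members are made from separate genes. In the RefSeq gene table for the assembly ARS-UI_Ramb_v3.0, MIR152 lies inside COPZ2, which codes for a subunit of the coat of COPI vesicles, between NFE2L1 and CDK5RAP3. MIR148A lies in no other gene there, with LOC121819411 and LOC101107436 as the nearest protein-coding genes. The third miRNA of this seed in mammals is miR-148b. No row carries that name, but the study's homology list pairs the predicted miRNA candidate-miR-127 with miR-148b. It is given beside the pair, and it is not the same as the known miR-127.

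Values are CPM, the reads of a miRNA per 1000000 miRNA reads of the library. The libraries held 17163 to 1058985 miRNA reads, and 3 of them held fewer than 100000 (well-fed male 5 with 17163, underfed male 6 with 27797 and underfed male 8 with 50099). The floor of 3 reads corresponded to between 0.000283% and 0.0175% of the miRNA reads, so both members lay above it in every library. Intervals of a share and floors cover counting error only, while intervals of a diet difference rest on the spread between males. The p-values of a diet difference judge it against the spread between these males. In whole testis fewer cells of a type and less RNA per cell cannot be told apart. The underfed libraries held more miRNA reads for each piRNA read (log2 ratio 0.74 ± 0.82, SD, n = 8) than the well-fed libraries (-0.81 ± 0.39, SD, n = 8).

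oar-miR-148a was one of the most abundant miRNAs of the testis in both diets, ranking between 4 and 11 in every library. In well-fed males 1 to 8 its expression was 23426, 23843, 27121, 44343, 25870, 37282, 31236 and 35269 CPM. In underfed males 1 to 8 it was 17805, 29183, 24850, 45255, 27788, 38529, 25559 and 52945 CPM. Male 4 was the highest of the well-fed males and male 8 of the underfed males, and the lowest of all was underfed male 1. The diets overlapped almost completely, and 4 of 8 underfed males lay above the well-fed median. The means were 31049 ± 7423 CPM (SD, n = 8) for the well-fed group and 32739 ± 11786 CPM (SD, n = 8) for the underfed group. The miRNA made up 1.78% to 5.29% of all miRNA reads.

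oar-miR-152 was present at a far lower level, ranking between 73 and 107. Its expression in well-fed males 1 to 8 was 302, 256, 357, 267, 350, 420, 466 and 260 CPM. In underfed males 1 to 8 it was 359, 367, 523, 423, 396, 360, 333 and 339 CPM. All 8 underfed males lay above the well-fed median of 326 CPM, but the ranges overlapped, since well-fed males 3, 5, 6 and 7 lay within the range of the underfed males. The means were 335 ± 78.3 CPM (SD, n = 8) for the well-fed group and 387 ± 62.0 CPM (SD, n = 8) for the underfed group. These values rest on few reads in the shallow libraries, with 6 reads in well-fed male 5, 10 in underfed male 6 and 17 in underfed male 8, and on 53.5 to 553.5 reads in the other 13.

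candidate-miR-127, the homologue of miR-148b, lay between the members. It had 755 ± 180 CPM (SD, n = 8) for the well-fed group and 876 ± 352 CPM (SD, n = 8) for the underfed group. Its well-fed values ran from 602 CPM to 1159 CPM with a median of 705 CPM, and its underfed values from 529 CPM to 1649 CPM with a median of 758 CPM. Underfed male 1, which had the lowest oar-miR-148a, had the highest candidate-miR-127. The order of the levels was oar-miR-148a, candidate-miR-127 and oar-miR-152 in all 16 libraries, and no value of one miRNA overlapped the values of another. These are levels per read and not per molecule, since ligation and amplification differ between miRNA sequences.

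**Figure D1:**
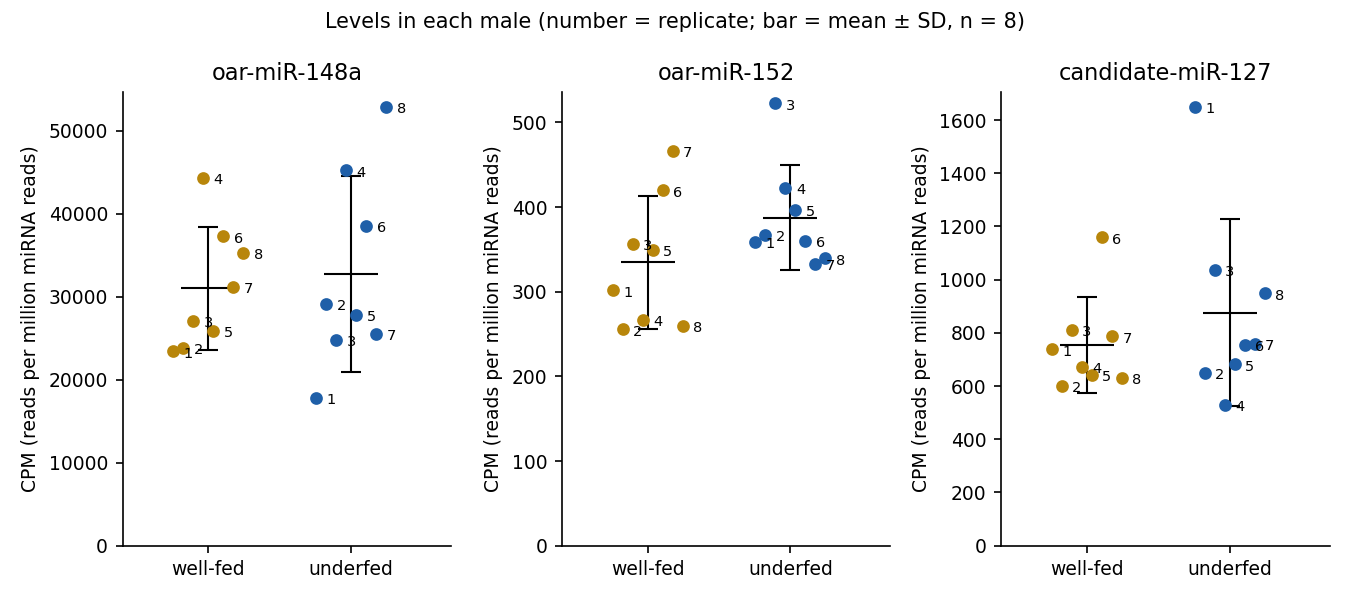
Expression of oar-miR-148a, oar-miR-152 and candidate-miR-127 (CPM, linear axes from 0) in each male; points carry the replicate number, and the horizontal bar and whiskers give the mean ± SD of 8 males. The diets overlap in each panel, with underfed male 8 highest for oar-miR-148a (52945 CPM), underfed male 3 for oar-miR-152 (523 CPM) and underfed male 1 for candidate-miR-127 (1649 CPM).

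The variation between males was of similar size for the members in well-fed males and of unequal size in underfed males. The coefficient of variation of oar-miR-148a was 23.9% with the well-fed diet and 36.0% with the underfed diet, and that of oar-miR-152 was 23.4% and 16.002%. Over the 244 miRNAs tested for differential expression, the median coefficient of variation was 37.0% and 61.4% in the same order. In underfed males 6 of these miRNAs varied less than oar-miR-152. Of its neighbours in abundance, candidate-miR-174 had 16.9% there, and candidate-miR-11, candidate-miR-35 and candidate-miR-169 had 35.6% to 53.8%. All these coefficients rest on CPM before TMM scaling, which is described below. After that scaling, oar-miR-152 had a mean of 466 with an SD of 116 among the underfed males. Among the well-fed males its scaled mean was 286 with an SD of 79.1. Counting error alone gives a coefficient of variation of 4.25% to 13.7% for oar-miR-152 in the 13 deepest libraries and 24.3% to 40.8% in the other 3, against 0.553% to 4.75% for oar-miR-148a in all 16.

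The balance of the pair was strongly towards oar-miR-148a in every male. The ratio of oar-miR-148a to oar-miR-152 in well-fed males 1 to 8 was 77.7, 93.3, 76.0, 166, 74.0, 88.8, 67.0 and 136. In underfed males 1 to 8 it was 49.6, 79.4, 47.5, 107, 70.1, 107, 76.8 and 156. Well-fed males 4 and 8 and underfed male 8 stood highest, and underfed males 1 and 3 stood lowest. A ratio within a library does not depend on how libraries are scaled to each other.

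On the log2 scale the balance was 6.53 ± 0.46 (SD, n = 8) for the well-fed group against 6.34 ± 0.58 (SD, n = 8) for the underfed group. The difference, underfed minus well-fed, was -0.20 with a standard error of 0.26, and the diets did not differ beyond the spread between males (two-sided exact permutation test over 12870 arrangements, p = 0.455). The underfed males were split around the well-fed median, with 5 of 8 below it. The smallest p that this design can give is 0.000155. In the 13 libraries with over 100000 miRNA reads, the difference was -0.47 (two-sided exact permutation test, p = 0.0967). That value is over 2 times the value from all libraries. Left out there were underfed males 6 and 8, with ratios of 107 and 156, and well-fed male 5, with a ratio of 74.0.

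Expressed as a share, oar-miR-152 made up 0.599% to 1.47% of the reads of the pair with the well-fed diet and 0.637% to 2.06% with the underfed diet. Well-fed male 4 had the smallest share (0.599%, 95% Wilson interval 0.487% to 0.736%) and underfed male 3 the largest (2.06%, 1.90% to 2.24%). In the shallowest library, well-fed male 5, the share of 1.33% had an interval of 0.612% to 2.88%, which held the shares of all other males except well-fed male 4. The intervals were separate in 9 of 28 pairs of well-fed males and in 16 of 28 pairs of underfed males. Their widths depend on depth, and the median of oar-miR-152 was 83 reads in well-fed and 220.5 reads in underfed males. These counts therefore do not compare the spread of the 2 diets. The share of oar-miR-148a was 98.9% ± 0.305 (SD, n = 8) for the well-fed group against 98.7% ± 0.503 (SD, n = 8) for the underfed group, a difference of -0.20 percentage points (two-sided exact permutation test, p = 0.359).

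**Figure D2:**
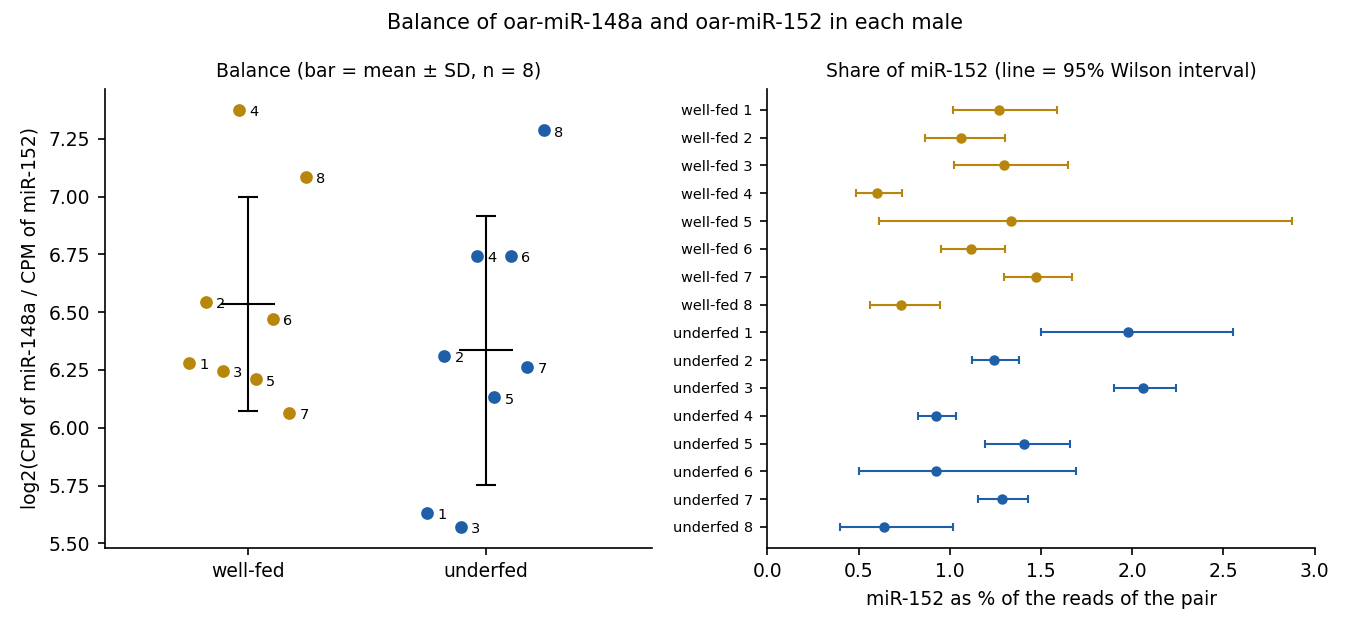
Left, log2 ratio of oar-miR-148a to oar-miR-152 in each male, with replicate numbers and the mean ± SD of 8 males per diet; right, oar-miR-152 as a percentage of the reads of the pair in each male, with its 95% Wilson interval. The diets overlap, the spread within a diet exceeds many of the intervals, and the 3 shallow libraries (well-fed 5, underfed 6 and 8) have wide intervals.

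With candidate-miR-127 included, oar-miR-148a made up 89.9% to 97.9% of the reads of the 3 miRNAs, candidate-miR-127 made up 1.14% to 8.32% and oar-miR-152 made up 0.590% to 1.98%. The largest share of candidate-miR-127 was in underfed male 1, where oar-miR-148a exceeded it 10.8 times, against 23.9 to 85.6 times in the other 15 males. The log2 balance of oar-miR-148a to candidate-miR-127 was 5.36 ± 0.38 (SD, n = 8) for the well-fed group against 5.23 ± 0.90 (SD, n = 8) for the underfed group (difference -0.13, two-sided exact permutation test, p = 0.738). The difference turned to 0.13 without underfed male 1 (exact permutation test, p = 0.620). The log2 balance of candidate-miR-127 to oar-miR-152 was 1.18 ± 0.24 (SD, n = 8) for the well-fed group against 1.11 ± 0.56 (SD, n = 8) for the underfed group (difference -0.07, two-sided exact permutation test, p = 0.759). Neither difference was larger than the spread between males.

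Recovered reads, which are CPM divided by the value of 1 read, were multiples of 0.5 for the 3 miRNAs. In 10 libraries exactly 2 of the 3 ended in 0.5, in the other 6 none did, and the sum of the 3 was a whole number (within 0.01 reads) in all 16. Candidate-miR-127 and oar-miR-148a both ended in 0.5 in 8 libraries, oar-miR-148a and oar-miR-152 in 1, and oar-miR-152 and candidate-miR-127 in 1. Between 10 and 29 of the 268 other miRNAs ended in 0.5 in a library. The deposited values thus held parts of reads that added up within these 3 miRNAs. How many reads were divided between them cannot be read from the values, and the effect of such division on the balance was not tested.

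The summed expression of the pair, log2 of the summed CPM + 1, was set almost wholly by oar-miR-148a. It was 14.90 ± 0.33 (SD, n = 8) for the well-fed group against 14.94 ± 0.51 (SD, n = 8) for the underfed group, and 4 of 8 underfed males lay above the well-fed median. The difference of 0.03 was within the spread between males (two-sided exact permutation test, p = 0.875). The sum rests on the scaling. With CPM divided by TMM factors, described next, the difference was 0.51 (two-sided exact permutation test, p = 0.0771). With the reads of both classes as the total, the difference was 0.78 (two-sided exact permutation test, p = 0.0221). On that scale oar-miR-148a had 11275 ± 2995 CPM (SD, n = 8) for the well-fed group against 20772 ± 8772 CPM (SD, n = 8) for the underfed group, and oar-miR-152 had 125 ± 46.5 and 244 ± 81.3 CPM (SD, n = 8 each). This scale also carries the larger share of miRNA reads in the underfed libraries.

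Expression was next compared between the diets for all miRNAs that exceeded 5 CPM in 8 or more libraries. Both members passed this filter, as did 244 miRNAs in all. CPM was divided by TMM factors, which set the bulk of miRNAs level between libraries, and log2(CPM + 1) was tested with limma. A miRNA was called differentially expressed (DE) with a Benjamini-Hochberg FDR under 0.05 and a fold change (FC, the ratio of mean CPM, underfed/well-fed) under 0.67 or above 1.5. The factors were 1.08 to 1.39 for the well-fed group and 0.698 to 1.26 for the underfed group, so they raised most underfed values against the well-fed values.

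On this scale oar-miR-148a was 0.51 higher in underfed males (log2, SE 0.24, 95% interval 0.00 to 1.01, limma, FDR = 0.193), with an FC of 1.05. The scaled CPM of oar-miR-148a was 14132 to 55539 among underfed and 18429 to 41122 among well-fed males, and 7 of 8 underfed males lay above the well-fed median. The log2 difference of oar-miR-152 was 0.70 (SE 0.22, 95% interval 0.24 to 1.17, limma, FDR = 0.0545), with an FC of 1.16. The scaled CPM of oar-miR-152 was 285 to 662 among underfed and 206 to 430 among well-fed males. All 8 underfed males lay above the well-fed median and 6 lay above the highest well-fed male. For candidate-miR-127 the log2 difference was 0.64 (SE 0.19, 95% interval 0.23 to 1.04, limma, FDR = 0.0519), with an FC of 1.16.

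None of the 3 passed the FDR threshold or was DE. The unadjusted limma p-values were 0.0499, 0.00469 and 0.0034 in the same order. Of all miRNAs tested, 3.28% were DE, 6.15% had FDR under 0.05 and 25.8% had an unadjusted p under 0.05.

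**Figure D3:**
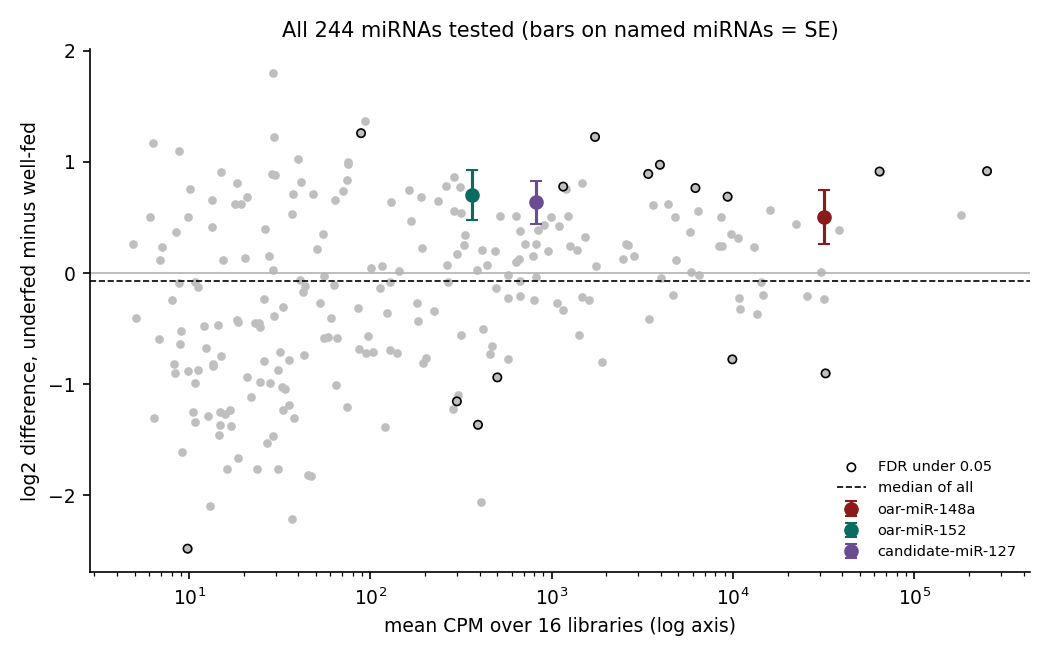
Log2 difference in expression, underfed minus well-fed, against mean CPM (log axis) for the 244 miRNAs tested, with the pair and candidate-miR-127 in colour (bars, SE), miRNAs with FDR under 0.05 ringed in black and the median of all miRNAs as a dashed line. The differences of the 3 miRNAs (0.51, 0.70 and 0.64) lie above the median of -0.08, and none of them is ringed.

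The size of these differences depended on the scaling. The median log2 difference of all miRNAs was -0.08 with TMM factors, -0.51 without them, and 0.81 when miRNAs and piRNAs were normalized jointly. Relative to that median, oar-miR-148a was higher by 0.58, 0.54 and 0.65, and oar-miR-152 by 0.78, 0.74 and 0.84. With TMM factors 55 miRNAs had a larger upward difference than oar-miR-148a and 32 a larger one than oar-miR-152. Without TMM factors the log2 differences themselves were 0.03 for oar-miR-148a (limma, FDR = 0.926) and 0.23 for oar-miR-152 (limma, FDR = 0.472). In the joint normalization they were 1.46 (limma, FDR = 0.00478, FC 1.84) and 1.65 (limma, FDR = 0.00354, FC 1.95), and both members and candidate-miR-127 (1.59, limma, FDR = 0.000986, FC 1.86) were DE. There 34.8% of all miRNAs had FDR under 0.05 and 60 of 244 were DE, all of them higher in underfed males. Among miRNAs with FDR under 0.05, 9 were higher and 6 lower with TMM factors, and 1 was higher and 38 lower without them. FC computed from TMM-scaled CPM was 1.47 for oar-miR-148a and 1.63 for oar-miR-152.

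oar-miR-152 passed the FDR threshold in several fits that left out or weighted libraries or reads. In the 13 deepest libraries its log2 difference was 0.78 (limma, FDR = 0.0276), with voom on recovered reads 0.75 (limma, FDR = 0.0231), and with sample weights 0.91 (limma, FDR = 0.000296). The share of all miRNAs with FDR under 0.05 also rose in these fits, to 17% in the 13 deepest libraries, 16.4% with voom and 40.2% with sample weights. Its FC from CPM without TMM factors was 1.16 to 1.20 in these fits, under the threshold of 1.5, so it was not DE. That rests on the scale of the FC, since from TMM-scaled CPM over all 16 libraries it was 1.63. The log2 difference of oar-miR-148a was 0.31 (limma, FDR = 0.421) in the 13 deepest libraries, where its mean CPM without TMM factors was lower in underfed males (FC 0.894), 0.48 higher (limma, FDR = 0.123) with voom and 0.62 higher (limma, FDR = 0.00801) with sample weights. Candidate-miR-127 gave 0.61 (limma, FDR = 0.0608), 0.61 (limma, FDR = 0.0402) and 0.58 (limma, FDR = 0.00965) in the same 3 fits.

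Single males also decided which side of the FDR threshold a member took. oar-miR-148a passed without underfed male 1 (log2 difference 0.70, limma, FDR = 0.0126), the male with its lowest level, and in none of the other 15 fits with 1 male left out. oar-miR-152 passed without well-fed male 7 (0.79, limma, FDR = 0.0371), underfed male 1 (0.80, limma, FDR = 0.0123) or underfed male 8 (0.76, limma, FDR = 0.0376). The share of all miRNAs with FDR under 0.05 was 18.8% without underfed male 1, 11.2% without underfed male 8 and 7.56% without well-fed male 7, against 6.15% with all males. Over all 16 such fits the log2 difference of oar-miR-148a ran from 0.35 to 0.70 and that of oar-miR-152 from 0.55 to 0.80.

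**Figure D4:**
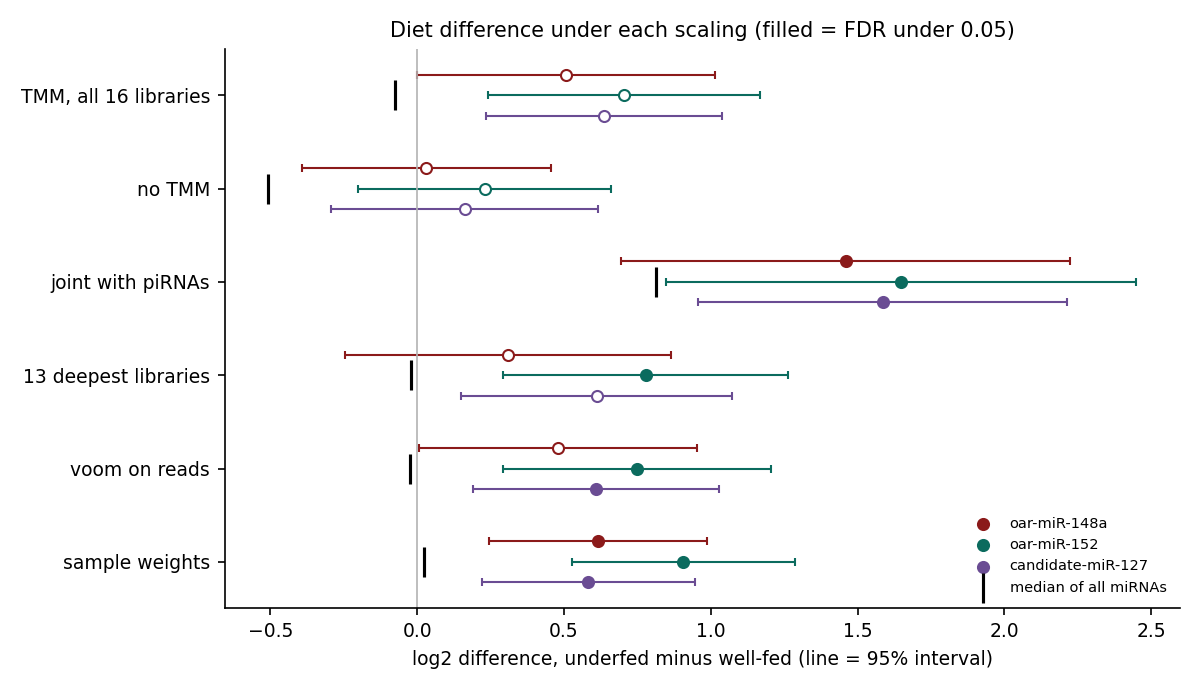
Log2 difference, underfed minus well-fed, with its 95% interval for oar-miR-148a, oar-miR-152 and candidate-miR-127 under 6 ways of scaling or weighting; filled points have FDR under 0.05 and the black tick is the median of all miRNAs tested. The points move with the tick between the fit without TMM (oar-miR-152 at 0.23) and the joint fit with piRNAs (1.65), and all lie to its right.

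No relation between the members from male to male was detected. Among the well-fed males, log2 CPM of oar-miR-148a against that of oar-miR-152 gave Pearson's r = 0.03 (exact permutation test, p = 0.947) and Spearman's rho = 0.19 (exact permutation test, p = 0.665), n = 8. Within the underfed males r was -0.13 (exact permutation test, p = 0.758) and rho was -0.05 (exact permutation test, p = 0.935), n = 8. Without the 2 males farthest from the median of oar-miR-152, r was -0.40 for the well-fed and -0.23 for the underfed diet. After adjustment over the 6 relations computed, the values for r were 0.947 and 0.910, and 0.977 for each rho.

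The balance was also compared with depth and with the ratio of miRNA to piRNA reads. Against log2 miRNA reads, r was 0.22 (rho 0.05) for the well-fed and -0.50 (rho -0.50) for the underfed diet (exact permutation tests, p = 0.593, 0.935, 0.208 and 0.216, n = 8 each, adjusted 0.910, 0.977, 0.625 and 0.649). The underfed value became 0.37 without males 6 and 8, which are both the shallow underfed libraries and the 2 farthest from the median, so its sign rests on those 2 libraries. In well-fed males r was 0.22 without the 2 farthest and -0.18 without the shallow library. Against the log2 ratio of miRNA to piRNA reads, r was -0.56 (rho -0.55) for the well-fed and 0.18 (rho 0.02) for the underfed diet (exact permutation tests, p = 0.169, 0.171, 0.669 and 0.977, n = 8 each, adjusted 0.625, 0.649, 0.910 and 0.977). The well-fed value was -0.01 without males 7 and 8, so it rests on those males, and the underfed value was -0.09 without males 1 and 3. None of the 6 relations passed.

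**Figure D5:**
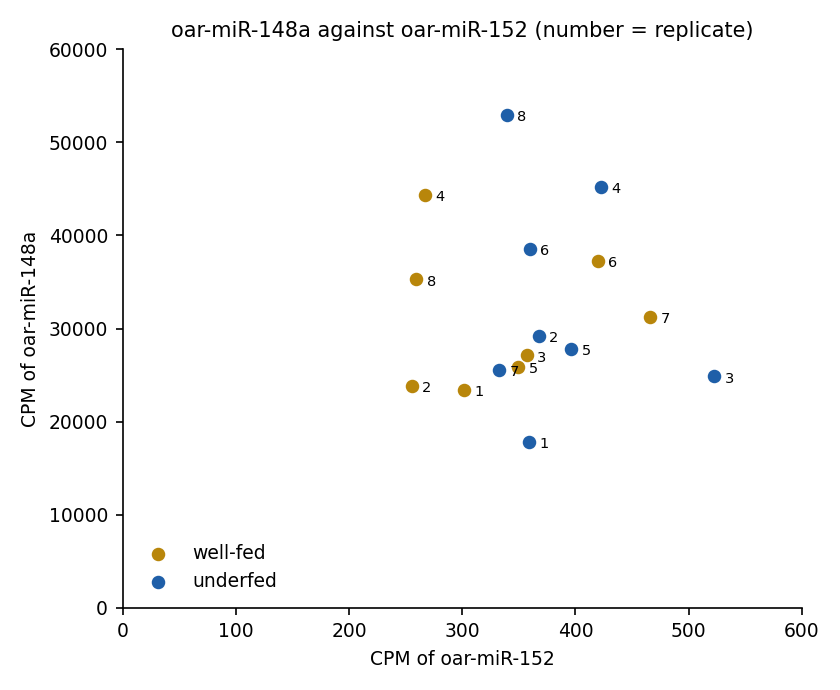
Expression of oar-miR-148a against oar-miR-152 (CPM, linear axes from 0) in each of 16 males, with replicate numbers. Males with similar oar-miR-152, such as underfed males 1 (359 CPM) and 6 (360 CPM), have oar-miR-148a of 17805 and 38529 CPM, and no common slope is seen in either diet.

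The miRNAs whose CPM ordered the 16 libraries most like each member were different ones. For oar-miR-148a they were candidate-miR-166 (the study's homologue of miR-30e, rho = 0.76), candidate-miR-169 (of miR-542, rho = 0.75) and oar-miR-143, the abundant miRNA of smooth muscle (rho = 0.75). Within the well-fed diet these rho were 0.57, 0.57 and 0.33, and within the underfed diet 0.88, 0.83 and 0.90. The least alike was oar-let-7c, a member of the let-7 family (rho = -0.81, with -0.83 and -0.79 within the well-fed and underfed diets). For oar-miR-152 they were oar-miR-200b, an epithelial miRNA (rho = 0.82), candidate-miR-103 (of miR-508, rho = 0.57) and candidate-miR-117 (of miR-135, rho = 0.57), and the least alike was candidate-miR-32 (rho = -0.70). Their rho was 0.83, 0.64, 0.74 and -0.88 within the well-fed diet and 0.86, 0.24, 0.38 and -0.43 within the underfed diet. oar-miR-200b had between 0 and 21 reads per library and was at 0 in 5 libraries, and 3 of those 5 were the shallow libraries. The values describe 16 libraries that differ in diet, depth and the CPM total they share. Among the 243 other miRNAs, oar-miR-152 was 66th in likeness to oar-miR-148a (rho = 0.15).

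The neighbours in abundance gave differences of either sign. Next to oar-miR-148a in mean CPM were oar-let-7a (0.39, limma, FDR = 0.170) and candidate-miR-31, the homologue of miR-34c of meiotic germ cells. With TMM factors candidate-miR-31 fell by 0.90 on the log2 scale in underfed males (limma, FDR = 0.0256) and was DE. It was at -1.38 without TMM factors (limma, FDR = 0.00189), and at 0.05 in the joint normalization, where the median of all miRNAs was 0.81. On the lower side were oar-miR-22-3p (-0.23, limma, FDR = 0.464) and oar-miR-191 (0.01, limma, FDR = 0.971). Around oar-miR-152, candidate-miR-35 fell by 1.37 (limma, FDR = 0.0369), and candidate-miR-11 (0.03), candidate-miR-169 (0.34) and candidate-miR-174, the homologue of miR-155 (0.25), did not pass (limma, FDR = 0.960, 0.558 and 0.483). Differences between a member and its neighbours were not tested.

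Other miRNAs known to repress DNA methyltransferases were taken as a list of 6, the miR-29 members oar-miR-29a, oar-miR-29b and candidate-miR-107, with oar-miR-143 and the homologues of miR-342 (candidate-miR-134) and miR-101 (candidate-miR-87). All 6 passed the filter, 1 had FDR under 0.05 with limma and 0 were DE, against 6.15% and 3.28% of all miRNAs. An unadjusted p under 0.05 was found for 5 (25.8% of all), and 2 had FDR under 0.05 with voom (16.4% of all), where 0 were DE (24 of all 244). Their median log2 difference was 0.73 against -0.08 for all miRNAs. oar-miR-29a rose in underfed males by 0.89 (SE 0.18, limma, FDR = 0.00546), from 2863 ± 493 to 3946 ± 1252 CPM (SD, n = 8 each), with an FC of 1.38. The others gave 0.43 to 0.86. Without TMM factors candidate-miR-134 was at -0.05 and the others at 0.05 to 0.42, with oar-miR-29a not passing there (limma, FDR = 0.152).

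With TMM factors in limma, 2 of the 3 markers of meiotic and later germ cells passed the FDR threshold between the diets (6.15% of all miRNAs). Of the 3 spermatogonial markers 0 passed there. Without TMM factors, where 39 of 244 miRNAs had FDR under 0.05, the spermatogonial candidate-miR-26 (homologue of miR-222) was at -0.82 (limma, FDR = 0.0279). The 3 markers of meiotic and later germ cells (candidate-miR-31, candidate-miR-30 and candidate-miR-161, homologues of miR-34c, miR-34b and miR-449a) summed to 47497 to 71079 CPM for the well-fed group and 10978 to 58155 CPM for the underfed group. All 3 fell with TMM factors, and 2 were DE (3.28% of all miRNAs). The DE markers were candidate-miR-31, which fell by 0.90, and candidate-miR-161, by 0.78 on the log2 scale (limma, FDR = 0.0256 for each). The fall of candidate-miR-30 was 0.80 (limma, FDR = 0.0931). With voom all 3 had FDR under 0.05 (16.4% of all miRNAs) and were DE (24 of all 244 miRNAs). Without TMM factors candidate-miR-31, candidate-miR-30 and candidate-miR-161 were at -1.38, -1.27 and -1.25 (limma, FDR = 0.00189, 0.0095 and 0.00127). In the joint normalization all 3 were at 0.05 to 0.18, where the median of all miRNAs was 0.81. None of the 3 markers was at 0 in any library. Over the 16 libraries their sum had rho = -0.64 with oar-miR-152, -0.01 with oar-miR-148a and 0.39 with the balance. The rho of these markers pool both diets, so they are not relations within a diet. The mean of the sum was 61160 CPM for the well-fed and 27206 CPM for the underfed group. The sums of the spermatogonial markers were 5647 to 12611 and 3151 to 8857 CPM, of the smooth muscle markers 153985 to 210989 and 138660 to 215633 CPM, of the mesenchymal markers 2702 to 4217 and 2969 to 5936 CPM, of the leukocyte markers 932 to 2303 and 778 to 2068 CPM, and of the erythroid marker 2336 to 7829 and 1372 to 8546 CPM, well-fed and underfed in that order. In these 5 lists 0 of 11 markers had FDR under 0.05 with TMM factors in limma (6.15% of all miRNAs), though candidate-miR-26 did without them. With TMM factors 3 had an unadjusted p under 0.05 (25.8% of all), and 2 had FDR under 0.05 with voom (16.4% of all). The markers of a list did not share one relation to oar-miR-148a. Of the smooth muscle markers, oar-miR-143 had rho = 0.75 and candidate-miR-90 had -0.28, of the leukocyte markers candidate-miR-60 had 0.67, candidate-miR-174 had -0.14 and candidate-miR-141 had 0.07, and the erythroid marker candidate-miR-132 had -0.57. The part of cell composition in the values of the pair was not tested.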

How the data were processed

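The authors extracted total RNA with Trizol, built libraries with the TruSeq small RNA kit, counted reads of 18 to 25 nt on known miRNAs (miRBase) and miRNAs predicted by miRDeep2 on Oar 3.1, and compared diets with edgeR. The submitters' processing notes name CASAVA 1.8. The deposited signal is CPM, which the authors describe as reads scaled to the total of the library. The values sum to about 1000000 within the miRNAs and within the piRNAs, so the total used was that of the class, as read from the values. Predicted miRNAs are written here as candidate-miR with the number of the files. One read was worth the smallest CPM step of a library, and 93.7% to 99.0% of low miRNA values were whole multiples within 0.1 reads. All were whole multiples of 0.5 reads. Since whole reads were not recovered throughout, no count model was used for the main test. The voom alternative took the recovered reads rounded to whole numbers.

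The members, lists and tests were chosen with earlier results of these data known. TMM factors (30% of log ratios and 5% of abundances trimmed) and limma 3.58.1 in R 4.3.3, with the empirical Bayes trend on log2(CPM + 1), compared the diets over all miRNAs past the filter. Intervals of the diet differences come from limma. Values per male were compared by exact two-sided permutation, and intervals of shares are 95% Wilson intervals, in Python 3.11.15 with numpy 2.4.6, pandas 2.3.3, scipy 1.17.1 and matplotlib 3.10.9. The tests were tried on simulated data. Replicate numbers come from the labels, which name no pairs. The miRNAs named besides the members are candidate-miR-127, the 3 most and 1 least alike by Spearman's rho over 16 libraries, the 2 next above and below in mean CPM, and the lists. Alternatives were other scalings, filters, pseudocounts (0.5 and 5), robust empirical Bayes, voom, sample weights, a replicate block, the 13 deepest libraries and each male left out. FC from TMM-scaled CPM, the fit without underfed male 1 and the shallow libraries, and the comparison of males with the same number were added after seeing the data. No 2 libraries held identical values. piRNA rows gave totals and joint scaling only. Sequences were not analysed here.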

Additional observations from a re-analysis of the deposited data

Results flagged for a closer look

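For 10 measures in each diet, the gap between the highest or lowest male and the next was set against the range of the 8 males, and 5 of the 20 groups held a male set apart by Dixon's test at the 95% level, where chance alone gives about 1 in 20. Underfed male 3 was set apart by its high oar-miR-152 (523 CPM), just past the critical value. Well-fed male 6 (1159 CPM) and underfed male 1 (1649 CPM) were set apart by high candidate-miR-127. Well-fed male 5 was set apart by its depth, with log2 miRNA reads of 14.07. Underfed male 1 was also set apart by the lowest log2 ratio of miRNA to piRNA reads of its diet, -0.95. No male was set apart in oar-miR-148a or in any of the 3 balances.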

How the results depend on the processing

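With the fits that leave out 1 male aside, oar-miR-148a passed the FDR threshold in the joint normalization (1.46) and with sample weights (0.62). oar-miR-152 passed in the joint normalization (1.65), the 13 deepest libraries (0.78), voom (0.75) and sample weights (0.91). candidate-miR-127 passed with a pseudocount of 0.5 (0.64), in the joint normalization (1.59), with voom (0.61) and with sample weights (0.58). Of all 244 miRNAs, 16 passed with a pseudocount of 0.5, 85 in the joint normalization, 40 with voom and 98 with sample weights. In the 13 deepest libraries 42 of 247 passed. With 1 male left out, the log2 differences ran from 0.35 to 0.70 for oar-miR-148a, 0.55 to 0.80 for oar-miR-152 and 0.50 to 0.74 for candidate-miR-127. Of these 3, candidate-miR-127 passed without well-fed male 6 (0.74, where 9 of 236 miRNAs passed) or 7 (0.67) or underfed male 1 (0.58) or 8 (0.64). The log2 differences were upward under every alternative run, but the FC of oar-miR-148a was 0.894 in the 13 deepest libraries and as low as 0.961 with 1 male left out. The joint scale differs by its construction, and the cause of the other changes was not tested.

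Among values that did not pass, the balance of oar-miR-148a to oar-miR-152 stayed negative under all 21 alternatives (-0.47 to -0.08). It was lowest in the 13 deepest libraries, and -0.38 when underfed male 1 was also left out. The balance of oar-miR-148a to candidate-miR-127 turned to 0.11 as a difference of medians, and ran from -0.30 to 0.13 with 1 male left out. That of candidate-miR-127 to oar-miR-152 ran from -0.23 to 0.043, turning without underfed male 4. The sum became 0.51 with TMM factors (not passing), -0.18 in the 13 deepest libraries and 0.78 with both classes as the total (the 1 change past the threshold), and ran from -0.075 to 0.15 with 1 male left out. Of the relations, oar-miR-148a against oar-miR-152 turned to -0.40 in well-fed males without the 2 farthest and to 0.23 in underfed males without the shallow libraries. The balance against depth turned to -0.18 in well-fed males without the shallow library and to 0.37 in underfed males under either alternative, and against the miRNA to piRNA ratio it turned to -0.086 in underfed males without the 2 farthest.

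DE calls numbered 8, against 36 without TMM, 60 in the joint normalization, 25 in the 13 deepest libraries, 24 with voom, 52 with sample weights and 0 to 22 with 1 male left out. The labels do not say what males with the same number share, and the numbers were not treated as pairs, since 3 of 8 same-number correlations over miRNAs were above 0.1 (mean 0.05). With the replicate block the differences of oar-miR-148a, oar-miR-152 and candidate-miR-127 were 0.51, 0.70 and 0.64 (limma, FDR = 0.0649, 0.0727 and 0.0580), with 7 DE calls against 8, and the block changed no call of these 3 miRNAs. Depth limits oar-miR-152 in the 3 shallow libraries.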

Other observations

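Males that carry the same replicate number in the 2 diets had similar oar-miR-148a. Males 4, 6 and 8 held the 3 highest values in each diet. Over the 8 numbers, log2 CPM of the well-fed against the underfed male gave Pearson's r = 0.81 (exact permutation test, p = 0.0177, adjusted over 3 relations 0.0530) and Spearman's rho = 0.71 (exact permutation test, p = 0.0576) for oar-miR-148a. The balance gave r = 0.72 (exact permutation test, p = 0.0466, adjusted 0.0699) and rho = 0.74 (exact permutation test, p = 0.0458), and oar-miR-152 gave r = -0.05 (exact permutation test, p = 0.912, adjusted 0.912) and rho = -0.14 (exact permutation test, p = 0.752). Of the 244 miRNAs, 3 had a higher r than oar-miR-148a, and the median was 0.08. The comparison was chosen after its values were seen, no r passed after adjustment, and no label gives the numbers a shared meaning.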
